A study of Mus musculus with 8 samples.

Results

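The genes described here are those named for the pore and auxiliary subunits of the inward rectifier (Kcnj), tandem-pore (Kcnk), small and intermediate conductance calcium-activated (Kcnn), large conductance calcium-activated or BK (Kcnma and Kcnmb) and sodium-activated (Kcnt) potassium channels in the mouse hippocampus. The rule took them by symbol, as every row of the expression table whose name starts with Kcnj, Kcnk, Kcnn, Kcnma, Kcnmb or Kcnt followed by a digit. The pattern also takes in Kcnmb4os1 and Kcnmb4os2, opposite-strand RNAs of Kcnmb4 that encode no subunit. The rule found 39 of the 19201 genes in the table, and 33 of them reached the mean normalized count of 10 that was required for a test. Total RNA, depleted of ribosomal RNA, came from hippocampi of mice aged 10 to 12 weeks, and each of the 8 libraries pooled the hippocampi of 2 mice. The 4 wild-type libraries are from C57BL/6 mice, and the 4 Mbd2-/- libraries are from mice that carry the Mbd2 deletion in every cell on a C57BL/6 background, with littermates bred from heterozygous parents. Because the deletion is constitutive, a difference between the genotypes may date from any stage before the tissue was taken.

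Mbd2 itself was examined first as a check of the labels. It was lower on average in Mbd2-/- libraries, but the overlap leaves the label of a single library unchecked. The allele leaves exon 1 in place, so reads on the gene need not vanish in Mbd2-/- tissue. Mbd2 had 295, 363, 371 and 354 normalized counts in wild-type replicates 1 to 4 and 244, 239.6, 339 and 217 in Mbd2-/- replicates 1 to 4. Values of single libraries are given in this order throughout. The wild-type library with the fewest Mbd2 reads lay below Mbd2-/- replicate 3, so the groups overlapped, with a difference of -0.43 on the log2 scale (SE 0.12, limma adjusted p = 0.0174) and an exact two-sided permutation p of 0.0571, where the smallest that 4 against 4 libraries allow is 0.0286.

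Potassium channels hold neurons near their resting potential and bring them back to it after activity. Inward rectifiers pass current best when the membrane is more negative than the potassium equilibrium, and in the hippocampus they carry the slow inhibition set off by G protein-coupled receptors, link excitability to ATP, and let astrocytes take up potassium. Tandem-pore channels carry the background leak current, while calcium- and sodium-activated channels open with spiking and shape the afterpotentials that follow. Mbd2 is a protein that binds methylated CpG dinucleotides and recruits repressive complexes. The authors of the study propose that at neuronal genes it acts mostly as an activator.

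The promoter windows of 5 channel genes are shown because these genes were called different between the genotypes under every setting that could be run on them, as were Kcnk9 and Kcnt1, which matched no window, and because CpG is the dinucleotide that Mbd2 reads when methylated. Each window runs from 250 bases before to 50 bases after a RefSeq transcription start on GRCm38.p6, a later build than the mm9 used for the reads, and is written 5′ to 3′ on the strand of the gene with every CG in capitals (the motif CG reads the same on both strands). The windows are Kcnj8 at chr6:142571565-142571864 on the minus strand, Kcnj9 at chr1:172329273-172329572 on the minus strand, Kcnj12 at chr11:61065554-61065853 on the plus strand, Kcnj13 at chr1:87394680-87394979 on the minus strand and Kcnk1 at chr8:125994852-125995151 on the plus strand.
Kcnj8: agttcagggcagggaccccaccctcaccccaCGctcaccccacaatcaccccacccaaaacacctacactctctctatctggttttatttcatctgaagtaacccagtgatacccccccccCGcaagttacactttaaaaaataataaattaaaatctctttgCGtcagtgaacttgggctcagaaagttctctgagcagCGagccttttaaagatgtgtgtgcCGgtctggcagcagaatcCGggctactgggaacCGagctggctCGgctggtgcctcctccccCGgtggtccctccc
Kcnj9: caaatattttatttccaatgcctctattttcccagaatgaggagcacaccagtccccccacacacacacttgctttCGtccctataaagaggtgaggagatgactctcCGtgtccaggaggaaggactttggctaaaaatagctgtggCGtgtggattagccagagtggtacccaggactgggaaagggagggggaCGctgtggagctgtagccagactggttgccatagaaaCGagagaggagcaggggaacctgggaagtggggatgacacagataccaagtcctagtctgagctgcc
Kcnj12: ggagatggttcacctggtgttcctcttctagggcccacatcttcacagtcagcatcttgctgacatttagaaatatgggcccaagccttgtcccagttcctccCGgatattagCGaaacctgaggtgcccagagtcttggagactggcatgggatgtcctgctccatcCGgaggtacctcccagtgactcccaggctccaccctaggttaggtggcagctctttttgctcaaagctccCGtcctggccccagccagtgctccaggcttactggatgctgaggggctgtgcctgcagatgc
Kcnj13: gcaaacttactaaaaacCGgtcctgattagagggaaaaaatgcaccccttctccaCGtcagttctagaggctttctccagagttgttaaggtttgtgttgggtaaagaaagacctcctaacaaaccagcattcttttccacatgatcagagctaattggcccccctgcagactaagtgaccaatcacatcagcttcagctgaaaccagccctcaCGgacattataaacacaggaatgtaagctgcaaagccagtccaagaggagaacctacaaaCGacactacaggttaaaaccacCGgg
Kcnk1: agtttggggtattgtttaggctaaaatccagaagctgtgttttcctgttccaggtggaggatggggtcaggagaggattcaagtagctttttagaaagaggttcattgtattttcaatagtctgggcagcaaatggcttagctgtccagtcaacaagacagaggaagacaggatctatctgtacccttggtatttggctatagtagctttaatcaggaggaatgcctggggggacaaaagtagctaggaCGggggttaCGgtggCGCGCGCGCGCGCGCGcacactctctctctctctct
The windows held 9 CG in Kcnj8, 5 in Kcnj9, 4 in Kcnj12, 5 in Kcnj13 and 10 in Kcnk1, where 8 of the 10 form a single uninterrupted repeat. Among the 32851 RefSeq windows of this length, the median was 7 CG, 68.6% held at least as many as Kcnj12 and 43.5% at least as many as Kcnk1. Windows were found for 31 of the 39 genes, 40 windows in all with a median of 9.5 CG. The 4 windows of genes called lower had a median of 7.5 CG, the 11 of 5 genes called higher a median of 6, and the 20 of 17 genes that were tested and not called a median of 14.5, with ranges of 4 to 36, 1 to 33 and 1 to 48 that lay over each other. Windows of one gene are not independent, and Kcnj16 and Kcnk2 hold 4 each of the 11. These letters say nothing about methylation, which the RNA libraries do not measure.

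The libraries held between 8087750 and 23790825 reads on genes. Mbd2-/- replicate 4 stood apart from the rest of its group. Its pairs with the other Mbd2-/- libraries differed by 9.64 to 16.3 times the variance of counting, against 2.05 to 6.04 for every other pair within a genotype. Deviation from the mean over all libraries was also related to transcript length, with a Spearman's rho across genes of 0.29 to 0.36 in the wild-type libraries, -0.46 to -0.36 in Mbd2-/- replicates 1 to 3 and 0.15 in Mbd2-/- replicate 4, so the total counts of called channel, partner and marker genes are also given with this trend removed and without that library. Among the 33 tested channel genes, the highest or lowest Mbd2-/- library was replicate 3 in 25 and replicate 4 in 22. Markers of hippocampal excitatory neurons were abundant in every library, with a sum over 6 genes of 98972 to 101128 normalized counts per wild-type library and 108432 to 116023 per Mbd2-/- library. That sum is mostly Camk2a, which was called higher, while Tbr1 was called lower, and the median of the 6 was -0.06. With the length trend removed 1 was lower and 1 higher, and without Mbd2-/- replicate 4 these were 1 and 2. In a bulk sample, fewer cells of a type and less RNA per cell cannot be told apart.

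Of the 33 tested channel genes, 9 were lower and 5 were higher in Mbd2-/- hippocampi at an adjusted p under 0.05 (limma on log2(normalized count + 1), Benjamini-Hochberg over all 14504 tested genes). The 9 lower genes make up 27.3% of the tested members, where 10.0% of all tested genes were called lower, and the 5 higher genes make up 15.2%, where 12.0% of all genes were called higher. The lower genes were Kcnj3, Kcnj9, Kcnj11, Kcnj12, Kcnk3, Kcnk6, Kcnk9, Kcnma1 and Kcnt1, and the higher genes were Kcnj8, Kcnj13, Kcnj16, Kcnk1 and Kcnk2. In 11 of these 14 genes the 4 libraries of one genotype did not overlap the 4 of the other, 7 lower and 4 higher. These make up 21.2% and 12.1% of the 33 tested members, where 11.5% of all tested genes were separated downwards and 12.1% upwards. Kcnj3, Kcnj16 and Kcnma1 were called although their libraries overlapped.

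Sizes were modest. Among the 14 called members the log2 fold change had a median size of 0.31, beside 0.30 for every called gene, and the median of all 33 tested members was -0.06, beside -9.10e-05 over all tested genes. The sign was negative in 19 of the 33. The 19 genes that were not called ranged from -0.60 in Kcnj5 to 0.34 in Kcnmb4os2, both with few reads.

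The balance of the calls moved with the treatment of transcript length. With the length trend removed, 5 members were called lower (Kcnj9, Kcnj11, Kcnj12, Kcnk9 and Kcnt1) and 7 higher, where 6.78% of all genes were called lower and 8.07% higher, so that the lower share of the called members went from 64.3% to 41.7%. The 2 additional higher genes were Kcnj10, at a log2 fold change of 0.20 (adjusted p = 0.00299), and Kcnt2, at 0.22 (adjusted p = 0.0131). The median of the tested members was -0.128 in that fit, beside -0.06 in the main one. Of the lower genes whose calls ended, Kcnk3 stood at -0.26, Kcnk6 at -0.38, Kcnj3 at -0.13 and Kcnma1 at -0.15. The longest annotated transcript had a median of 3810 bases in the genes called lower and 2301 in those called higher, beside 3183 over all tested genes. Without Mbd2-/- replicate 4, 10 members were lower and 5 higher, against 17.7% and 17.9% of all genes, and the added gene was Kcnn3 at -0.23 (adjusted p = 0.0142, limma). Leaving out any other single library gave 4 to 6 members lower and 3 to 5 higher, with fewer calls over all genes too.

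**Figure D1:**
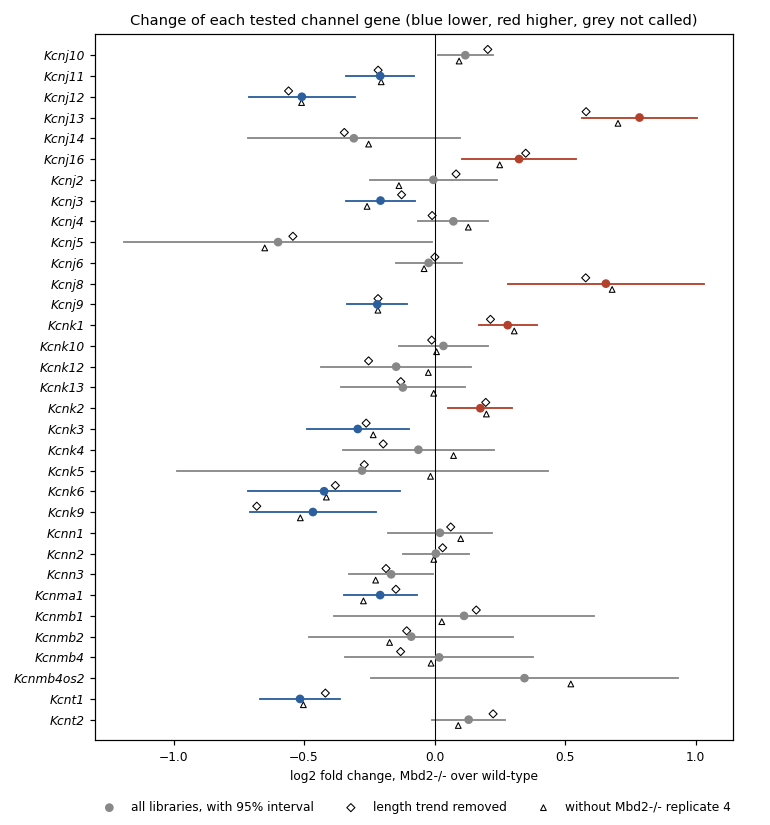
Log2 fold change (horizontal axis, Mbd2-/- over wild-type) of the 33 tested channel genes (vertical axis), as filled circles with 95% intervals from limma over 4 libraries in each genotype, coloured blue for the 9 lower, red for the 5 higher and grey for the 19 genes not called. Open diamonds give the estimate with the length trend removed and open triangles the estimate without Mbd2-/- replicate 4. All 3 estimates lie below -0.20 for Kcnj9, Kcnj12 and Kcnt1, among other genes.

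The calls of 7 genes held under every setting that could be run on them and with each library left out in turn. These were Kcnj8, Kcnj13 and Kcnk1, which were higher, and Kcnj9, Kcnj12, Kcnk9 and Kcnt1, which were lower. Kcnj11 was called in all settings that use the 8 libraries, but not without some single libraries.

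**Figure D2:**
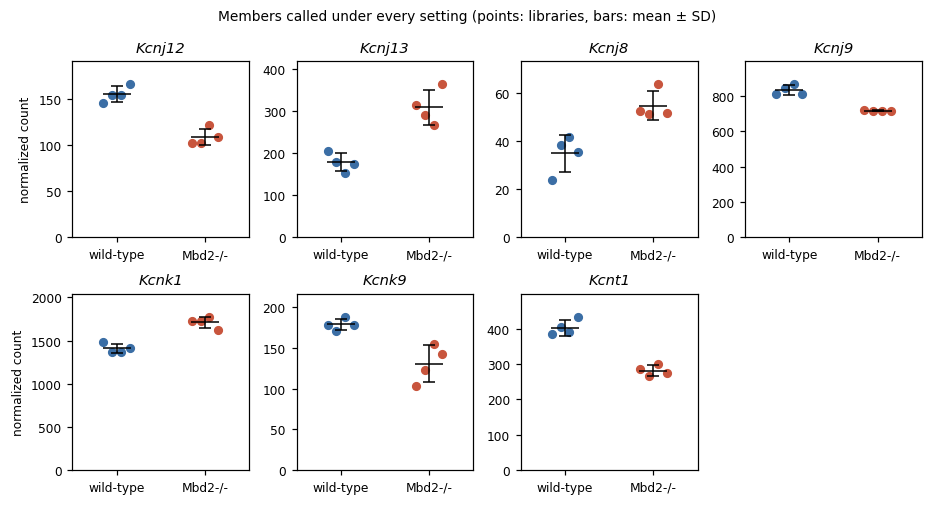
Normalized counts (vertical axis, starting at 0) of the 7 genes called under every setting run on them, with a point for each of the 4 wild-type (blue) and 4 Mbd2-/- (red) libraries and black bars for the mean ± SD. No panel has a wild-type point at the height of an Mbd2-/- point, and the Mbd2-/- libraries of Kcnj9 run from 713 to 720.2.

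Levels can be compared between genes only per length, and are given as normalized counts per kilobase of exon in wild-type libraries. Kcnj10, the glial inward rectifier, had the highest level at 675 ± 16.0 (SD, n = 4), followed by Kcnk1 at 612, Kcnj4 at 482, Kcnma1 at 459.6, Kcnj3 at 420.2, Kcnj9 at 255 and Kcnj6 at 209.6. The libraries of neighbours in this order did not overlap except for Kcnj4 with Kcnma1 and Kcnma1 with Kcnj3. Next came Kcnj11 at 169 and Kcnk2 at 166, whose libraries overlapped, and Kcnk9 at 148, Kcnj13 at 141 and Kcnn2 at 130.1. Libraries of Kcnj13 overlapped those of Kcnk9 and those of Kcnn2. Among the called genes, Kcnj8 at 16.0 and Kcnk6 at 14.7 were the least expressed, and their libraries overlapped. In the Mbd2-/- libraries Kcnk1 reached 744 ± 27.96 per kilobase and Kcnj10 733 ± 39.5 (SD, n = 4), a difference smaller than either spread.

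**Figure D3:**
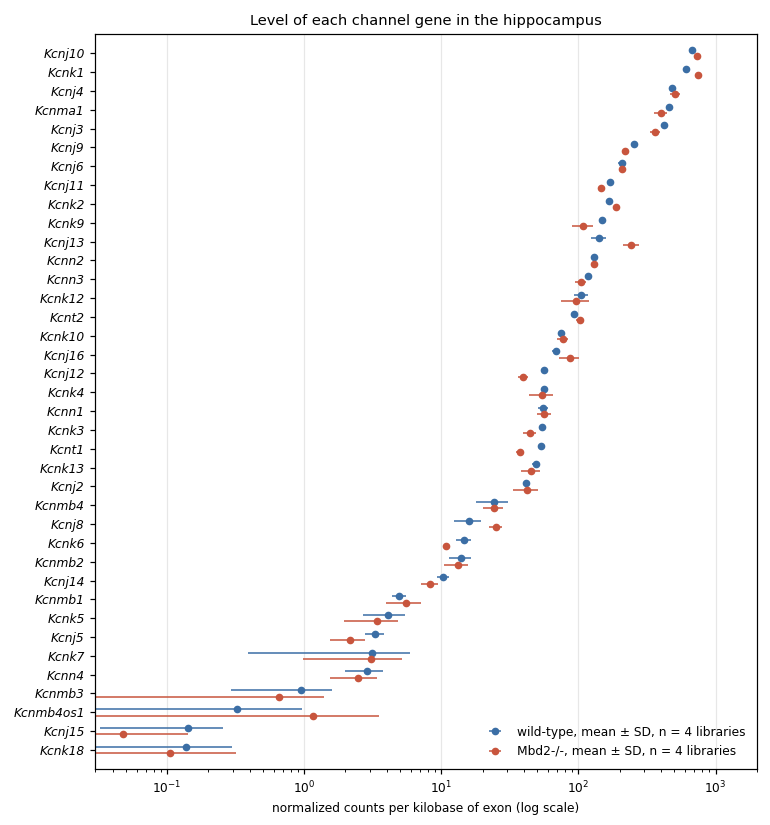
Level of 38 channel genes with an annotated length (vertical axis, ordered by the wild-type level) as normalized counts per kilobase of exon on a log axis, with points for the mean and bars for the SD of 4 wild-type (blue) and 4 Mbd2-/- (red) libraries, where bars that would pass 0 are drawn to the left edge. Wild-type levels run from 0.137 for Kcnk18 to 675 for Kcnj10, and the colours part most clearly for Kcnj13 and Kcnj8 on the higher side and Kcnt1 and Kcnj12 on the lower side.

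The G protein-gated inward rectifiers (Kir3 or GIRK) open when a receptor such as the GABA-B receptor frees the beta-gamma subunits of Gi or Go proteins. Of the 4 subunits, 2 were lower, where 10.0% of all tested genes were. All 4 had a negative sign, though that of Kcnj6 turned with the length trend removed (0.00138). Kcnj9 encodes GIRK3, which steers the channel through endosomes, and lies at chr1:174251164-174259394 of mm9. It had 812, 846, 869 and 812 normalized counts in wild-type and 720.2, 716, 717 and 713 in Mbd2-/- libraries. Every Mbd2-/- library was below every wild-type one and the 4 were nearly equal, with a difference of -0.22 on the log2 scale (SE 0.05, limma adjusted p = 0.00961). Removing the length trend left Kcnj9 at -0.22 (adjusted p = 0.00775).

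Kcnj3 at chr2:55288381-55450556 encodes GIRK1, which reaches the surface only with another subunit. Its counts were 2076, 2238, 2139.5 and 2312 in wild-type and 1932, 1836, 1728 and 2111 in Mbd2-/- libraries. Mbd2-/- replicate 4 lay above wild-type replicate 1, while the other Mbd2-/- libraries lay below every wild-type one, with a difference of -0.21 on the log2 scale (SE 0.06, limma adjusted p = 0.0254). The call ended with the length trend removed, at -0.13 (adjusted p = 0.110), with limma without trend or robust moderation (adjusted p = 0.0895), and without each of wild-type replicates 2, 3 and 4 and Mbd2-/- replicates 1, 2 and 3 (adjusted p of 0.0535 to 0.0947).

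Kcnj6 encodes GIRK2, the subunit with which most neuronal channels are built. It had 1325, 1160.1, 1254 and 1156 normalized counts in wild-type and 1133, 1193, 1242 and 1247 in Mbd2-/- libraries. The groups lay over each other, with a log2 fold change of -0.02 and a 95% interval of -0.15 to 0.10. Kcnj5, which encodes the mainly cardiac GIRK4, was near the minimum for a test with 12.8 to 17.99 in wild-type and 6.38 to 12.8 in Mbd2-/- libraries, and its log2 fold change of -0.60 was not called (adjusted p = 0.134, limma). Within a library, the ratio of Kcnj9 to Kcnj6 counts was 0.613 to 0.730 in wild-type and 0.572 to 0.636 in Mbd2-/- libraries, and that of Kcnj3 to Kcnj6 was 1.57 to 2.00 and 1.39 to 1.71, so both ratios overlapped. These and the ratios below were chosen after the values had been seen and carry no test.

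Of 12 genes for receptors that drive GIRK channels and their KCTD subunits, 7 were called lower, where 10.0% of all tested genes were. The count was 6 with the length trend removed and 8 without Mbd2-/- replicate 4, beside 6.78% and 17.7% of all genes, and 0 were higher in these settings. Of the 6 genes for the GABA-B receptor and its KCTD auxiliary subunits, 3 were called lower. Gabbr2, the subunit that couples to the G protein, had 3106, 3213, 3300.0 and 3224 normalized counts in wild-type and 2633, 2558, 2356 and 2385 in Mbd2-/- libraries. The groups were far apart, with a difference of -0.37 on the log2 scale (SE 0.05, limma adjusted p = 0.000202), and the call held in every setting. Gabbr1, which binds GABA, changed less, at -0.15 (adjusted p = 0.0265, limma), and its groups did not overlap. That call was lost with the length trend removed, where the estimate fell to -0.07 (adjusted p = 0.362). With limma lacking trend and robust moderation it was lost at an unchanged -0.15 (adjusted p = 0.0901). It was also lost without wild-type replicates 1, 2 or 4 or Mbd2-/- replicates 1 or 2 (adjusted p of 0.0606 to 0.0854). Kctd16, which binds Gabbr2 and shapes its response, was at -0.25 (adjusted p = 0.0382, limma) with overlapping groups, and lost its call under DESeq2, under plain limma and without wild-type replicates 1, 3 or 4 or Mbd2-/- replicates 1, 2 or 3 (adjusted p up to 0.127). Kctd8, Kctd12 and Kctd12b were not called.

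Of 6 other receptors known to couple to GIRK channels, 4 were called lower, all with few or moderate counts. Drd2, the D2 dopamine receptor, had 42.0, 38.4, 48.3 and 40.4 normalized counts in wild-type and 17.9, 21.9, 15.9 and 17.3 in Mbd2-/- libraries, which is the largest change among the partner genes at -1.17 (SE 0.18, limma adjusted p = 0.000468). Htr1a, the 5-HT1A serotonin receptor, had 489, 511, 462 and 463 in wild-type and 396, 368, 402 and 429.6 in Mbd2-/- libraries, a difference of -0.27 on the log2 scale (SE 0.07, limma adjusted p = 0.0107). The calls of Drd2 and Htr1a held in every setting that could be run on them, which for Drd2 leaves out the minimum of 50. The muscarinic receptor gene Chrm2 was at -0.71 (adjusted p = 0.0128, limma) and the mu opioid receptor gene Oprm1 at -0.69 (adjusted p = 0.0186, limma), neither with overlap. Chrm2 passed the threshold no longer without wild-type replicate 1 (adjusted p = 0.0531) and Oprm1 without wild-type replicate 2 (adjusted p = 0.0566). Adora1, the adenosine A1 receptor gene and the most abundant of this group, was at -0.12 with no overlap between the genotypes and was not called (adjusted p = 0.0929, limma), and Sstr2 was at 0.08.

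Downstream of the receptors little was called. Among 8 G protein subunit genes only Gnai2, which encodes an inhibitory alpha subunit that is common in glia, was higher at 0.30 (adjusted p = 0.0123, limma), with Mbd2-/- replicate 4 at 2136 inside the wild-type range. Without trend and robust moderation Gnai2 was not called (adjusted p = 0.0699, limma). Gnao1, the Go alpha subunit gene, was at -0.11 with no overlap between the genotypes and was not called (adjusted p = 0.0772, limma). Gnb1, the most abundant of the 8, was at 0.05. None of the 4 RGS complex genes that speed the closing of GIRK channels (Rgs6, Rgs7, Gnb5 and Rgs7bp) was called by limma, with log2 fold changes of -0.14 to 0.05, nor was Snx27, which sorts GIRK3, at -0.07, and 0 of these 5 had an unadjusted p under 0.05 or a call by DESeq2, edgeR or voom. The same holds for the 4 kinases that make PIP2, the lipid all inward rectifiers need to open, from -0.10 in Pip5k1a to 0.08 in Pip5k1b and with Pip5k1c, the most abundant, at 0.03, with 0 at an unadjusted p under 0.05 and 0 called by the other tools. Of the 42 partner genes tested and reported here, 9 were lower and 1 higher, where 10.0% and 12.0% of all tested genes were, with a median of -0.09. With the length trend removed 8 were lower and 3 higher, beside 6.78% and 8.07% of all genes, while leaving out Mbd2-/- replicate 4 gave 14 lower and 5 higher, beside 17.7% and 17.9%.

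**Figure D4:**
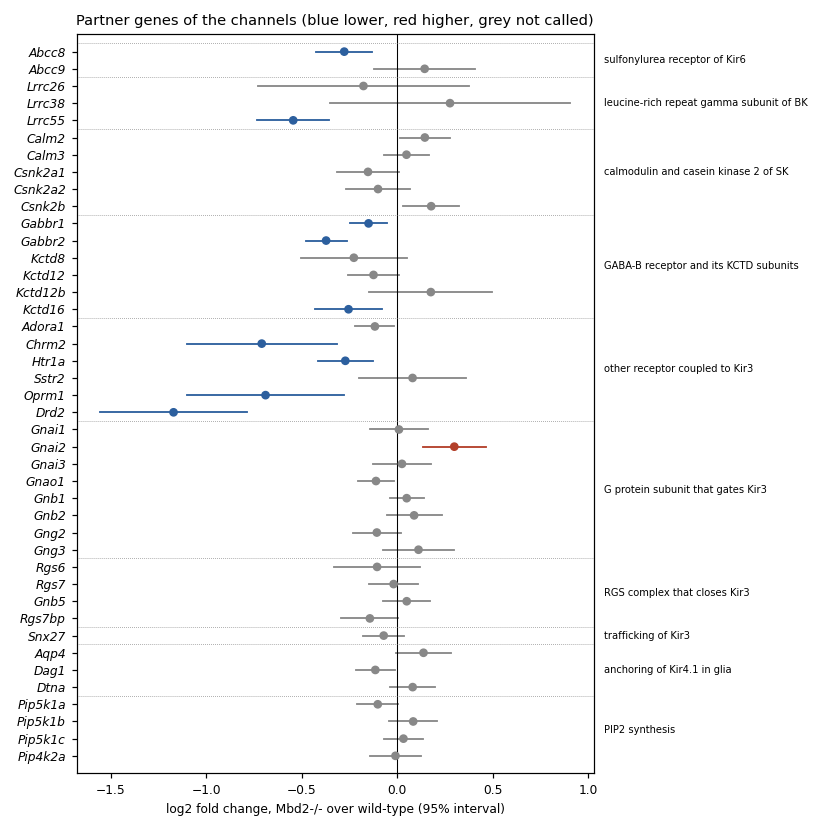
Log2 fold change (horizontal axis, Mbd2-/- over wild-type, circles with 95% intervals from limma) of the 42 tested partner genes (vertical axis), grouped by the role named at the right. Blue marks the 9 genes called lower, 7 of them receptors of GIRK channels or their KCTD subunit, red the 1 called higher and grey those not called, and Drd2 at -1.17 lies farthest from 0.

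The strong inward rectifiers (Kir2) block outward current with polyamines and magnesium and set the resting potential. Of the 4, 1 was called, as lower, where 10.0% of all tested genes were called lower and 12.0% higher. Kcnj12, at chr11:60836066-60884633, had 145, 153, 154 and 166 normalized counts in wild-type and 102, 102, 121 and 109 in Mbd2-/- libraries. The highest Mbd2-/- library was well under the lowest wild-type library, with a difference of -0.51 on the log2 scale (SE 0.10, limma adjusted p = 0.00182), and over the alternatives, left-out libraries included, the estimate ran from -0.56 to -0.47. Its promoter window, printed above, was the poorest in CG of the 5 shown. Kcnj4, the most abundant of the family, had 1066, 1003, 1060.2 and 1010.2 counts in wild-type and 1088, 1137, 1172 and 966 in Mbd2-/- libraries. Mbd2-/- replicate 4 was the lowest of all 8 and the other Mbd2-/- libraries the highest, and Kcnj4 was not called at 0.07 (adjusted p = 0.441, limma). The ratio of Kcnj12 to Kcnj4 within a library was 0.136 to 0.164 in wild-type and 0.0901 to 0.112 in Mbd2-/- libraries and did not overlap. Kcnj2 was at -0.00438 with Mbd2-/- replicate 4 at 297, above all other libraries, and Kcnj14, with 25.5 to 31.0 in wild-type and 19.2 to 25.5 in Mbd2-/- libraries, was at -0.31. Neither was called (adjusted p = 0.984 and 0.266, limma).

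The inward rectifiers of glia and epithelia move potassium rather than set firing. Kcnj13 encodes a channel of fluid-secreting epithelia such as the choroid plexus and the retinal pigment epithelium, and lies at chr1:89282938-89291304. It had 207, 181, 154 and 174 normalized counts in wild-type and 314, 291, 268 and 365 in Mbd2-/- libraries. All Mbd2-/- libraries were above all wild-type ones, with a difference of 0.79 on the log2 scale (SE 0.10, limma adjusted p = 0.000167). The alternatives, left-out libraries included, ran from 0.58 with the length trend removed to 0.86 without wild-type replicate 1. Kcnj13 lies inside Gigyf2 on the opposite strand, and whether reads were counted by strand is not given in the sources used here. Gigyf2 was at -0.01 (adjusted p = 0.933, limma).

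Markers of choroid plexus epithelium rose together with Kcnj13. All 17 listed markers were higher, by a median of 0.87 on the log2 scale, and their summed level was 24537 to 26208 normalized counts per wild-type library and 47264 to 53722 per Mbd2-/- library, and no defining marker was at 0 in any group. The 17 were also called higher with the length trend removed and without Mbd2-/- replicate 4. Relative to the wild-type mean, the 17 markers averaged 0.88, 0.89, 0.79 and 0.84 on the log2 scale in the 4 Mbd2-/- libraries, where Kcnj13 stood at 0.81, 0.70, 0.58 and 1.03. The part of choroid plexus tissue in the change of Kcnj13 was not tested.

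Kcnj10 encodes Kir4.1, through which astrocytes and oligodendrocytes take up potassium. It had 3644, 3745, 3664 and 3536 normalized counts in wild-type and 4048, 3979, 3661 and 4159 in Mbd2-/- libraries. Mbd2-/- replicate 3 lay inside the wild-type range and the other Mbd2-/- libraries above it, and Kcnj10 was not called at 0.12 (adjusted p = 0.101, limma), although it was with the length trend removed, as given above, or without Mbd2-/- replicate 3 (adjusted p = 0.0277). Kcnj16, whose product Kir5.1 forms channels only with a partner such as Kir4.1, lies at chr11:110829347-110889282 and had 249, 278, 259.8 and 291 in wild-type and 365, 337, 266 and 393 in Mbd2-/- libraries. As in Kcnj10, Mbd2-/- replicate 3 alone lay within the wild-type range, and Kcnj16 was called higher with a difference of 0.32 on the log2 scale (SE 0.10, limma adjusted p = 0.0331). The call was lost under limma without trend or robust moderation (adjusted p = 0.0982) and without wild-type replicates 1, 2 or 3 or Mbd2-/- replicates 1 or 2 (adjusted p of 0.0576 to 0.106). The Kcnj16 to Kcnj10 ratio overlapped, at 0.0683 to 0.0823 in wild-type and 0.0727 to 0.0945 in Mbd2-/- libraries. Kcnj15, which encodes Kir4.2, had at most 1.59 normalized counts in a library and was not tested.

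Of 10 astrocyte markers 8 were higher (9 with the length trend removed and 9 without Mbd2-/- replicate 4), with a median of 0.28 and a sum of 116886 to 118992 normalized counts per wild-type library and 129743 to 151630.0 per Mbd2-/- library. Of 8 oligodendrocyte markers 6 were higher (5 and 8 in the same settings), with a median of 0.26 and a sum of 77374 to 78614 normalized counts per wild-type library and 91128 to 97616 per Mbd2-/- library. The part of these cells in the values of Kcnj10, Kcnj16 and Kcnk1 was not tested. Of the complex that anchors Kir4.1 at glial endfeet, Dag1, Aqp4 and Dtna were tested and 0 were called by limma, DESeq2, edgeR or voom. Dag1, the dystroglycan gene, was at -0.11 with no overlap between the genotypes and was the only one of the 3 at an unadjusted p under 0.05. The water channel gene Aqp4 was at 0.14 (adjusted p = 0.163, limma) and Dtna, the dystrobrevin gene, at 0.08. On chromosome 1, Kcnj9 and Kcnj10 lie 11.9 kb apart, one lower and the other not called, and on chromosome 11 Kcnj16 and Kcnj2 lie 38.2 kb apart, one higher and the other not called.

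The ATP-sensitive inward rectifiers (Kir6) close when ATP is plentiful, and each pore is built with a sulfonylurea receptor. The 2 pore genes were called in opposite directions, where 10.0% of all tested genes were lower and 12.0% higher. Kcnj11, at chr7:53352533-53355607, encodes the neuronal pore Kir6.2 and had 519, 551, 489 and 525 normalized counts in wild-type and 459.7, 452, 443 and 447 in Mbd2-/- libraries. The Mbd2-/- libraries were close to each other and below all of the wild-type ones, with a difference of -0.21 on the log2 scale (SE 0.06, limma adjusted p = 0.0246). Without wild-type replicates 1, 2 or 4 or Mbd2-/- replicate 2 the adjusted p was 0.0577 to 0.0816. Abcc8, the gene of its receptor SUR1, moved the same way, from 462, 436, 470.4 and 476 in wild-type to 416, 377, 379 and 351 in Mbd2-/- libraries, a difference of -0.28 on the log2 scale (SE 0.07, limma adjusted p = 0.0102). With the length trend removed it was no longer called (adjusted p = 0.0598). The Abcc8 to Kcnj11 ratio overlapped, at 0.791 to 0.963 and 0.785 to 0.906.

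Kcnj8, at chr6:142513459-142519876, encodes Kir6.1, the pore of pericytes and vascular smooth muscle. It had 24.0, 38.4, 41.9 and 35.6 normalized counts in wild-type and 52.4, 51.2, 63.8 and 51.9 in Mbd2-/- libraries. Wild-type replicate 1 was low and Mbd2-/- replicate 3 high, but the groups did not overlap, and Kcnj8 was higher with a difference of 0.66 on the log2 scale (SE 0.18, limma adjusted p = 0.0154). The read numbers behind these values are small, 16, 51, 46 and 67 in wild-type and 41, 56, 40 and 54 in Mbd2-/- libraries. Abcc9, the gene of its receptor SUR2, was at 0.14 with a 95% interval of -0.12 to 0.41 and was not called. Of 7 markers of pericytes and smooth muscle, Rgs5 was higher, Anpep was lower and 5 were not called (0 lower and 2 higher with the length trend removed or without Mbd2-/- replicate 4), with a sum of 2218 to 2341 normalized counts per wild-type library and 2561 to 2769 per Mbd2-/- library. Of 8 endothelial markers 2 were higher (3 higher, and 2 higher with 1 lower, in these settings), with a sum of 2415 to 2509 normalized counts per wild-type library and 2601 to 2719 per Mbd2-/- library. The part of these cells in the value of Kcnj8 was not tested. The Kcnj8 to Kcnj11 ratio was 0.0462 to 0.0858 in wild-type and 0.113 to 0.144 in Mbd2-/- libraries. It could not overlap, because Kcnj8 was separated upwards and Kcnj11 downwards.

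**Figure D5:**
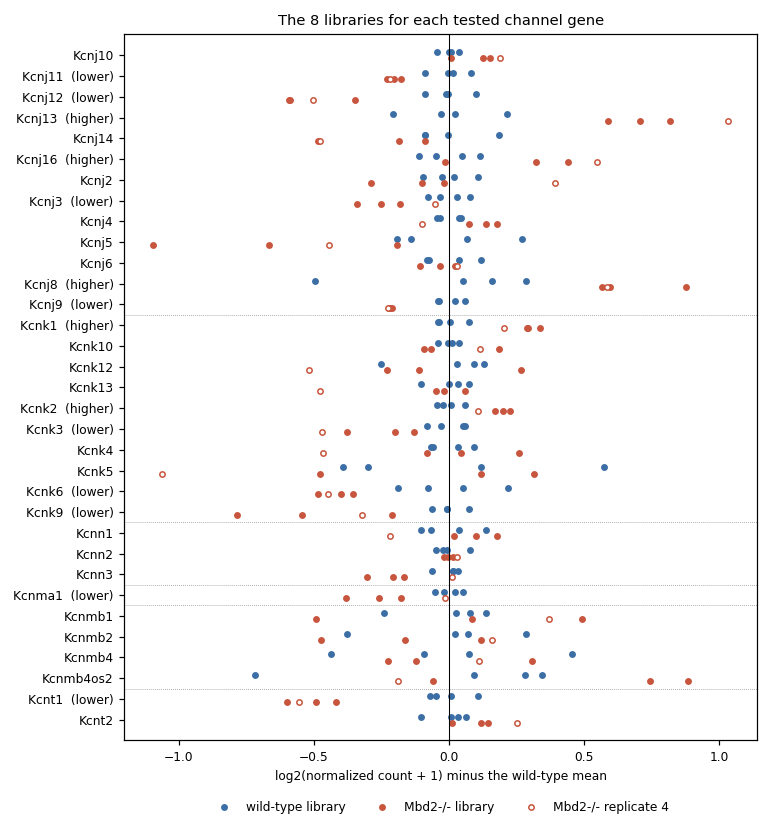
Difference of log2(normalized count + 1) from the wild-type mean (horizontal axis) in each of the 4 wild-type (blue) and 4 Mbd2-/- (red) libraries for the 33 tested channel genes (vertical axis), with dotted lines between subfamilies and the calls in brackets. The open red circle is Mbd2-/- replicate 4, which lies apart from the other red points in Kcnj2 and Kcnk13. Red and blue points are separate in 11 genes, among them Kcnj9, Kcnj12, Kcnj13, Kcnk1 and Kcnt1.

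Of the 10 tandem-pore genes tested, 3 were lower and 2 higher, where 10.0% and 12.0% of all tested genes were. In the TWIK group, Kcnk1 at chr8:128519002-128554583, which encodes TWIK1, abundant in astrocytes and dentate granule cells, had 1481, 1372, 1370.1 and 1413 normalized counts in wild-type and 1725, 1721, 1777 and 1623 in Mbd2-/- libraries. The lowest Mbd2-/- library, replicate 4, was above the highest wild-type one, with a difference of 0.28 on the log2 scale (SE 0.05, limma adjusted p = 0.00164). Kcnk6 at chr7:30006947-30017541, which encodes TWIK2, went the other way, from 63.0, 70.7, 57.4 and 53.1 in wild-type to 47.2, 45.7, 43.0 and 44.2 in Mbd2-/- libraries. Its groups were separate, with a difference of -0.42 on the log2 scale (SE 0.14, limma adjusted p = 0.0373), but the call was among the least stable. It was lost under DESeq2, voom, no filter on low values, the replicate block and the removed length trend (adjusted p of 0.0523 to 0.0942). In those settings the estimate stayed between -0.43 and -0.38. The call was also lost without wild-type replicates 1, 2 or 3 or Mbd2-/- replicates 1, 2 or 3 (adjusted p of 0.0589 to 0.120). Kcnk7, whose product is not known to pass current, had at most 7.29 normalized counts and was not tested.

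The TASK channels close when the outside turns acid and are a leak of many neurons. Kcnk9 and Kcnk3, the 2 genes grouped here as TASK, were both called lower, where 10.0% of all tested genes were. Kcnk5, given below, was grouped apart from them and was not called. Kcnk9 at chr15:72342549-72376709, which encodes TASK3, had 178, 172, 189 and 178 normalized counts in wild-type and 103, 123, 155 and 143 in Mbd2-/- libraries. The wild-type libraries were tight and the Mbd2-/- ones spread out below them, with a difference of -0.47 on the log2 scale (SE 0.11, limma adjusted p = 0.00856), and -0.68 (adjusted p = 0.000758) with the length trend removed. Kcnk3 at chr5:30890543-30927643, which encodes TASK1, had 214, 202, 194 and 213 in wild-type and 179, 158, 188 and 148 in Mbd2-/- libraries. Its groups were separate, with a difference of -0.29 on the log2 scale (SE 0.09, limma adjusted p = 0.0311). The call was lost with the length trend removed, where the estimate stayed at -0.26 (adjusted p = 0.0612). It was also lost without wild-type replicates 1, 2 or 4 or Mbd2-/- replicate 2 (adjusted p of 0.0580 to 0.0917). The Kcnk9 to Kcnk1 ratio was 0.120 to 0.138 in wild-type and 0.0600 to 0.0882 in Mbd2-/- libraries. It could not overlap, because Kcnk9 was separated downwards and Kcnk1 upwards.

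Many genes of the thalamus, which lies under the hippocampus, were lower in the same libraries, also with the length trend removed or without Mbd2-/- replicate 4. Of 14 thalamic markers 11 were lower, as were 11 in each of those settings, with a median of -0.47 and a sum of 6628 to 6908 normalized counts per wild-type library and 4584 to 5290.1 per Mbd2-/- library. Of 9 markers of CA1, CA3 and dentate neurons 3 were lower (also 3 in each), with a median of -0.04 and a sum of 12148 to 12554 normalized counts per wild-type library and 10997 to 11793 per Mbd2-/- library. Of 8 interneuron markers 2 were lower and 4 higher, against 3 and 1 with the length trend removed and 2 and 4 without Mbd2-/- replicate 4. The part of these cells in the lower channel and receptor genes was not tested.

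The TREK and TRAAK channels answer to stretch, heat and lipids. Kcnk2 at chr1:191031816-191167711, which encodes TREK1, had 625, 591, 582 and 603 normalized counts in wild-type and 675, 689.5, 701 and 646 in Mbd2-/- libraries. Its groups did not overlap, with a difference of 0.18 on the log2 scale (SE 0.06, limma adjusted p = 0.0402). The call ended without the filter on low values, without trend and robust moderation and with the replicate block (adjusted p of 0.0552 to 0.0644), and without any single library other than Mbd2-/- replicate 4 (adjusted p of 0.0549 to 0.111). Kcnk10 (TREK2) at 0.03 and Kcnk4 (TRAAK) at -0.06 were not called. Nor were Kcnk12 at -0.15 and Kcnk13 at -0.12, the THIK channels, of which Kcnk13 is the leak channel of microglia. In Kcnk12, Kcnk13 and Kcnk4, Mbd2-/- replicate 4 was the lowest of all 8 libraries. Without it Kcnk12 was at -0.02 and Kcnk13 at -0.00323, and the sign of Kcnk4 turned to 0.07. Of 10 microglial markers, 7 were higher (3 with the length trend removed and 8 without Mbd2-/- replicate 4), with a median of 0.30 and a sum of 5827 to 6102 normalized counts per wild-type library and 6573 to 7459.9 per Mbd2-/- library. Their part in the value of Kcnk13 was not tested. Kcnk5 had 9.78 to 20.1 in wild-type and 5.77 to 16.6 in Mbd2-/- libraries and was not called at -0.28, and Kcnk18, which encodes the sensory neuron channel TRESK, had at most 1.28 in a library and was not tested.

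The small conductance (SK) channels open on calcium through bound calmodulin and give the medium afterhyperpolarization. None of the 3 tested genes was called by limma, 1 of them (Kcnn3) had an unadjusted p under 0.05, and DESeq2, edgeR and voom called 0. Kcnn2, which encodes SK2, the main SK channel of CA1 pyramidal cells, had 486, 476, 521 and 489.7 normalized counts in wild-type and 492, 487, 497 and 503 in Mbd2-/- libraries. The groups lay over each other, with a log2 fold change of 0.01 and a 95% interval of -0.12 to 0.13. Kcnn1 (SK1) was at 0.02 with an interval of -0.18 to 0.22. Kcnn3 (SK3) had 345, 369, 364 and 364 in wild-type and 312, 321, 292 and 363 in Mbd2-/- libraries. Mbd2-/- replicate 4 alone sat at the wild-type level, and Kcnn3 was not called with all libraries at -0.17 (adjusted p = 0.127, limma). Kcnn4, the intermediate conductance channel of immune and red cells, had at most 9.12 normalized counts and was not tested. The calmodulin genes Calm2 and Calm3 and the casein kinase genes Csnk2a1, Csnk2a2 and Csnk2b, whose kinase tunes SK channels, ranged from -0.15 in Csnk2a1 to 0.18 in Csnk2b. Calm3, the most abundant of the 5, was at 0.05. None of the 5 was called by limma, 2 of them (Calm2 and Csnk2b) had an unadjusted p under 0.05, and DESeq2, edgeR and voom called 0.

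BK channels need both calcium and depolarization and end the action potential. The pore gene Kcnma1 at chr14:24117983-24622526 had 2265, 2106, 2156 and 2217 normalized counts in wild-type and 1827, 1931, 1678 and 2161 in Mbd2-/- libraries. Mbd2-/- replicate 4 lay within the wild-type range and the other Mbd2-/- libraries below it, with a difference of -0.21 on the log2 scale (SE 0.07, limma adjusted p = 0.0336). The call was lost with the length trend removed at -0.15 (adjusted p = 0.0798), without trend and robust moderation (adjusted p = 0.110), and without any single library other than Mbd2-/- replicate 4 (adjusted p of 0.0504 to 0.105). Without Mbd2-/- replicate 4 it was at -0.27 (adjusted p = 0.000131).

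None of the 3 tested BK beta subunit genes nor the antisense row Kcnmb4os2 was called by limma, 0 of these 4 had an unadjusted p under 0.05, edgeR and voom called 0, and DESeq2 called 0 of the 3 other than Kcnmb1, for which it gave no adjusted p. Kcnmb4, the neuronal beta subunit and the most abundant, had 82.4, 108, 57.4 and 73.3 normalized counts in wild-type and 97.0, 66.8, 71.7 and 84.6 in Mbd2-/- libraries. The wild-type libraries alone spanned the whole range, with a log2 fold change of 0.02 and a 95% interval of -0.34 to 0.38. Kcnmb2, which inactivates the channel, was at -0.09 with 32.8 to 52.5 in wild-type and 30.6 to 48.0 in Mbd2-/- libraries. Kcnmb1, the beta subunit of smooth muscle, was at 0.11 with 17.3 to 22.8 in wild-type and 14.3 to 29.4 in Mbd2-/- libraries, and overlaps Kcnip1 on the opposite strand. Kcnmb4os2 was at 0.34, and Kcnmb4os1, which overlaps Kcnmb4 on the opposite strand, and Kcnmb3 were below the minimum for a test.

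Of the leucine-rich repeat gamma subunits, which let BK channels open at lower voltage, Lrrc55 was lower. It had 250.3, 242, 242 and 229 normalized counts in wild-type and 163, 163, 147 and 189 in Mbd2-/- libraries. Even the highest Mbd2-/- library, replicate 4, was well below the wild-type ones, and the difference of -0.54 on the log2 scale (SE 0.09, limma adjusted p = 0.000660) was called in every setting. Lrrc26 was at -0.18 and Lrrc38 at 0.28, each with few reads and neither called, and Lrrc52 was below the minimum for a test.

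The sodium-activated channels give a late current during sustained firing. Kcnt1 at chr2:25719315-25773793, which encodes Slack, had 384, 405, 389 and 434 normalized counts in wild-type and 286, 265, 301 and 274 in Mbd2-/- libraries. The highest Mbd2-/- library was far under the lowest wild-type library, and the difference of -0.52 on the log2 scale (SE 0.07, limma adjusted p = 0.000222) was close to that of Kcnj12. Over the alternatives, left-out libraries included, it ran from -0.55 to -0.42. Kcnt2, which encodes Slick, had 613, 589.9, 545 and 600.2 in wild-type and 636, 648, 591 and 698 in Mbd2-/- libraries. It was not called at 0.13 (adjusted p = 0.167, limma), and its sign was opposite to that of Kcnt1. The ratio of Kcnt1 to Kcnt2 within a library was 0.626 to 0.723 in wild-type and 0.393 to 0.509 in Mbd2-/- libraries, and the ranges did not touch.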

How the data were processed

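The authors dropped duplicate reads, used STAR for alignment to mm9 and DESeq2 for the comparison. The tool that counted reads and its strand setting are not given in the sources used here. As signal the authors deposited a normalized count per gene and library, which is the reads over a DESeq2 size factor. The authors' own comparison, deposited beside it as fold changes, standard errors, statistics and p-values, was not used. Reads were recovered as multiples of the smallest value in a library, with 100% of values whole (tolerance 0.01). Read totals (8087750 to 23790825 per library) cover counting error only. Each library is a pool of 2 mice, by the study's methods.

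Genes with a mean of at least 10 were tested with limma 3.58.1 (R 4.3.3, trend, robust) on log2(value + 1) at a Benjamini-Hochberg adjusted p of 0.05, and Mbd2 also with an exact permutation test. Since normalized values are no raw counts, DESeq2 1.42.0, edgeR 4.0.16 and voom, run on the recovered reads, served as alternatives, as did TMM and upper quartile scaling, no filter or a minimum of 50, pseudocounts of 0.5 and 8, no trend or robust moderation, a replicate block, a transcript length trend removed from each library (lowess span 0.3), and leaving out each library. The numbers of the replicates were not used as pairs, because the deviations of same-numbered libraries correlated at -0.10 to 0.07. Genes were placed on GENCODE vM1 (mm9, 93.4% of symbols matched), and promoter windows are RefSeq's on GRCm38.p6. The gene families (whose members the symbol rule then took), partner genes and markers were chosen with earlier results of these data known, so no list has a test. 2 partner genes are not reported here and are in no count of partner genes. Every member is reported by subfamily, with each library's value for members called, separated or most expressed in their subfamily. Of the partners, those called and the most expressed of each role are named, not all with library values.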

Additional observations from a re-analysis of the deposited data

Results flagged for a closer look

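Of 66 groups of 4 libraries (the 2 genotypes of each of the 33 tested channel genes), 1 held a library far from the other 3 by Dixon's test at 95%, a rate below the 1 in 20 that this test flags by chance. In Kcnj8, the Kir6.1 pore gene, Mbd2-/- replicate 3 had 63.8 normalized counts and the other Mbd2-/- libraries had 51.2 to 52.4, so that its gap to the nearest of them was 0.909 of the range of the group. It stood on 40 reads. With that library left out, Kcnj8 was still called higher.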

How the results depend on the processing

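Of the 12 alternatives that used all libraries, DESeq2, edgeR, voom, both scalings, both filters, both pseudocounts and the replicate block left 8 or 9 members called lower, 4 or 5 higher, 9 partner genes lower (6 with a minimum of 50, which tests fewer genes) and 1 higher. The median of the members was -0.031 with voom and -0.128 with the length trend removed. Without trend and robust moderation, limma called 7 members and 7 partner genes lower, 3 members higher and 0 partner genes higher. With the length trend removed, 5 members were lower, and 8 partner genes were lower and 3 higher. No called gene changed sign, and the cause of these shifts was not tested.

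The replicate block, an extra term for the replicate number, left 8 members lower and 4 higher and ended the calls of Kcnk6 (adjusted p = 0.0526) and Kcnk2 (adjusted p = 0.0644, limma). Kcnj5, Kcnj8, Kcnj14, Kcnk5, Kcnmb1, Kcnmb2, Kcnmb4os2 and the partner genes Chrm2, Drd2, Oprm1, Lrrc26 and Lrrc38 have means under 50 and gave no value at that minimum, DESeq2 gave no adjusted p for Kcnj5, Kcnk5, Kcnmb1, Lrrc26 and Lrrc38, and Kcnmb4os2 has no length.

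Leaving out a library each in turn gave 4 to 10 members lower, 3 to 5 higher, a median of -0.086 to -0.015, 6 to 14 partner genes lower, 1 to 5 higher and an exact permutation p for Mbd2 of 0.0571 to 0.114, where 0.0571 is the smallest that 3 against 4 libraries allow, so none of these could pass 0.05. Members called fell to 5 lower and 3 higher when wild-type replicate 1 was dropped, to 4 and 3 for wild-type replicate 2 and for Mbd2-/- replicate 2, to 6 and 3 for wild-type replicate 3 and for Mbd2-/- replicate 1, to 5 and 4 for wild-type replicate 4 and to 6 and 5 for Mbd2-/- replicate 3. Calls over all genes fell too, from 3185 to between 2073 and 2939 in these 7 fits. Without Mbd2-/- replicate 4, 10 members and 14 partner genes were lower and 5 partner genes higher, with 5156 calls over all genes. Dropping wild-type replicate 2 gave 2 partner genes higher, as did dropping Mbd2-/- replicate 3. Genes with few reads, such as Kcnj5, Kcnk5 and Kcnmb1, had the widest intervals and could show only large changes.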
